A study of Mus musculus with 3 samples.

Results

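The miRNAs described here are those of the imprinted Dlk1-Dio3 locus on mouse chromosome 12. They were chosen by family number, from the 51 numbers of miRNAs that the mouse annotation places in this locus, with no use of measured values. The counts held 83 mature miRNAs of the locus among 627 in all, from 48 of those numbers and from 51 hairpins. Of the 83, 36 came from the 5p arm and 47 from the 3p arm of their hairpin. miR-3071, which lies opposite miR-136, was not analysed here.

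Small RNA was sequenced from ovaries of newborn CD1 mice, an outbred strain, that were cultured until postnatal day 3. The cultures received the plasticizer di(2-ethylhexyl) phthalate (DEHP) at 10 or 100 μM, and the control at 0 μM received the solvent, DMSO, alone. Each concentration was 1 library from pooled ovaries, so the values below have no replicate error, no test between concentrations could be made, and differences are given with an interval for counting error only. DEHP is used to soften plastics and is studied for effects on the assembly of primordial follicles, which in mice takes place in the days around birth.

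The Dlk1-Dio3 locus is imprinted, which means that its genes are read from the chromosome of only one parent. The protein genes Dlk1, Rtl1 and Dio3 are expressed from the paternal chromosome. The long non-coding RNAs Meg3, Rian and Mirg, together with the miRNAs on their strand, are expressed from the maternal one. The miRNAs on that strand are cut from long transcripts that run through the locus. Each hairpin can give a 5p and a 3p mature miRNA, 1 from each side of its stem. A group of these miRNAs, including miR-127, lies antisense to Rtl1 and can direct cleavage of the Rtl1 transcript, which is needed in the placenta. Other members are best known from brain, such as miR-134 in dendrites and the miR-376 group, whose sequences are edited there from adenosine to inosine.

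On the GRCm38 build the 51 hairpins spanned chromosome 12 from 109563692 to 110278129, which is 714.438 kb, with 49 on the plus strand and Mir299b and Mir1247 on the minus strand. Going along the chromosome, 6 hairpins with 10 members lay from Meg3 up to Rtl1, among them Mir770 within a Meg3 exon at 109563692-109563785. The next 5 hairpins, Mir431, Mir433, Mir127, Mir434 and Mir136, lay within an Rtl1 exon on the opposite strand and gave 10 members. Within Rian lay Mir341, Mir1188 and Mir370, with 4 members. The large cluster from Mir379 to Mir410, at 109709060-109743795, packed 35 hairpins and 56 members into 34.736 kb, and its later hairpins, from Mir382 on, lay inside Mirg. Mir3072, within Mirg, and Mir1247, within a Dio3os exon at 110278048-110278129, gave the last 3 members.

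The sequences below, from RefSeq on GRCm38.p6, carry the results that follow. They are written 5′ to 3′ in lower case with the seed, bases 2 to 8, in capitals, since the seed is the stretch that chooses most targets. First come the most abundant members, miR-127-3p at 109592888-109592909 and miR-379-5p at 109709065-109709085, followed by the 5p arm of Mir1193, which shares the seed of miR-379-5p.
miR-127-3p: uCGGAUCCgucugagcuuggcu
miR-379-5p: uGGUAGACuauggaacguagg
miR-1193-5p: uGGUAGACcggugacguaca
Next is a pair from different hairpins with the same seed, whose counts went in opposite directions at 100 μM.
miR-370-5p: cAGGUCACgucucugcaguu
miR-1193-3p: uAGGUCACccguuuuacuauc
The arms of Mir380, Mir493, Mir431 and Mir382 are shown because the share of each hairpin's counts that came from its 5p arm differed between the 0 and 100 μM libraries beyond counting error.
miR-380-5p: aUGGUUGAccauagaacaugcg
miR-380-3p: uAUGUAGUaugguccacaucuu
miR-493-5p: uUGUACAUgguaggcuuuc
miR-493-3p: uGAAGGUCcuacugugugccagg
miR-431-5p: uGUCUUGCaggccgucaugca
miR-431-3p: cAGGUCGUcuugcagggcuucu
miR-382-5p: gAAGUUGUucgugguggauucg
miR-382-3p: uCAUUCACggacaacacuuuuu
Last are members that were more than 2 log2 units lower at 100 μM, with miR-1247-3p, from the far end of the locus, which was higher.
miR-376b-3p: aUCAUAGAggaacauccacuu
miR-376a-5p: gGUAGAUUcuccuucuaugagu
miR-410-3p: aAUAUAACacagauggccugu
miR-154-5p: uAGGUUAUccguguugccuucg
miR-1247-3p: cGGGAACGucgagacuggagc

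With 1 row kept for each mature miRNA, the libraries held 5253367, 5064602 and 5952274 counts at 0, 10 and 100 μM. Over all deposited rows they held 6916300, 6950297 and 6850706. The 100 μM library stood apart from the others. Its total was the highest over the kept rows and the lowest over all rows. It had the lowest median count per miRNA, 97 against 232 and 227, and its DESeq2 size factor was 0.546 against 1.38 and 1.35. Normalized counts below are counts divided by these factors, so the median miRNA was set level between libraries, and at 100 μM 3 counts equalled 5.50 normalized counts against 2.18 and 2.23. Marker miRNAs differed between libraries as well. The summed normalized counts of the 2 gonad markers, both arms of miR-202, were 31188, 40382 and 19964 at 0, 10 and 100 μM, with the 5p arm lower and the 3p arm higher at 100 than at 0 μM, and both were present in each library. Both endothelial markers, the arms of miR-126a, summed to 46170, 52252 and 9855, and the 6 listed of 7 germ cell markers to 2614, 1901 and 5507. The germ cell markers did not go one way, since miR-294-3p had 336, 266 and 2184 normalized counts and miR-293-3p had 1095, 686 and 973. Red blood cell markers, 3 of 3 listed, gave 948, 1009 and 835, muscle markers, 3 of 3, gave 284, 214 and 480.0, neuron markers, 2 of 3 with miR-124-3p not analysed, gave 521.0, 500.02 and 663, and the liver marker gave 16.0, 10.4 and 14.7. The muscle and neuron markers did not go one way either. miR-1a-3p and miR-133a-3p were higher at 100 than at 0 μM, and miR-206-3p was lower, with 7.33 against 18.9 normalized counts. miR-9-5p was higher and miR-219a-5p lower, with 3.66 against 9.43. In a library of whole ovaries fewer cells of a type and less RNA per cell cannot be told apart, and the part of these cell types in the results below was not tested.

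Locus miRNAs made up a small part of each library. They took 317405 of the counts of the kept rows at 0 μM, which is 6.04% (Wilson 95% interval 6.02% to 6.06%). At 10 μM the share was 5.83% (5.81% to 5.85%). At 100 μM it was 6.84% (6.82% to 6.86%). These intervals, like all those below, cover counting error only, since copies made by PCR could not be told from separate molecules. As normalized counts the locus summed to 230316, 219035 and 746093, so the totals that lay close as shares of a library were far apart on this scale.

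Whatever the scale of the total, the make-up of the locus differed. miR-127-3p, the most abundant member, took 34.1%, 40.6% and 44.8% of the locus counts at 0, 10 and 100 μM. miR-379-5p, the next, took 16.2%, 14.4% and 36.9%. Together they held 50.3% and 55.0% of the locus at 0 and 10 μM and 81.7% at 100 μM, where the locus was mostly these molecules. The members other than this pair took 3.00% of the library (2.99% to 3.02%) at 0 μM, 2.62% (2.61% to 2.64%) at 10 μM and 1.25% (1.24% to 1.26%) at 100 μM. On the normalized scale the same members summed to 114378, 98617 and 136296, so whether they were lower or higher at 100 μM depended on the scale.

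**Figure D1:**
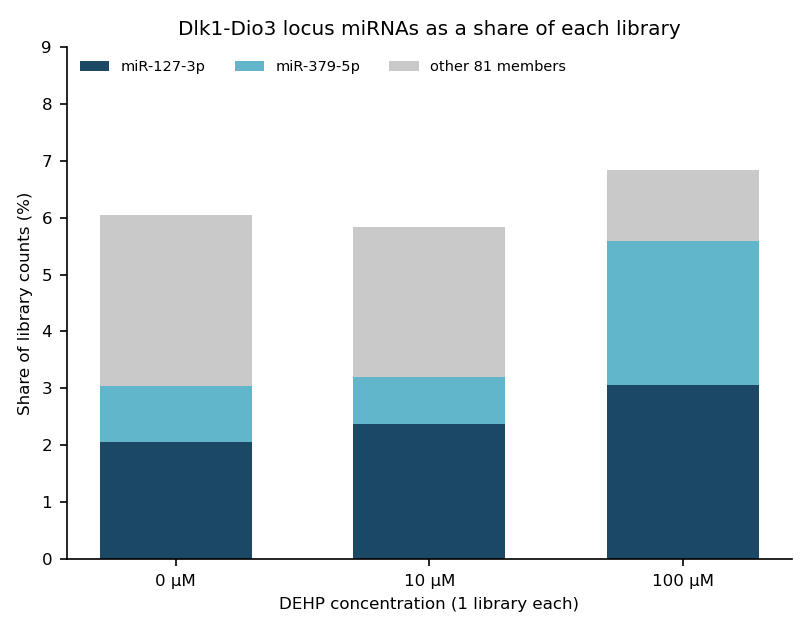
Share of each library's counts (%) taken by Dlk1-Dio3 miRNAs at 0, 10 and 100 μM DEHP, with miR-127-3p, miR-379-5p and the other members drawn apart. The total lies between 5.83% and 6.84%, while the other members go from 3.00% at 0 μM to 1.25% at 100 μM.

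The 2 stretches that held most of the counts kept much the same weight as wholes, though not in their make-up, and most of the smaller ones did not. Members antisense to Rtl1 held 47.1%, 51.0% and 47.7% of the locus counts at 0, 10 and 100 μM, most of it miR-127-3p. The Mir379 to Mir410 cluster held 49.1%, 46.0% and 50.5%. Within it miR-379-5p alone held 16.2%, 14.4% and 36.9% of the locus counts, so its other members together held less at 100 μM. Members from Meg3 up to Rtl1 held less at 100 μM, with 1.31%, 1.38% and 0.428%. Those within Rian went from 2.44% at 0 μM to 1.5% and 1.32% in the DEHP libraries. Mir3072 and Mir1247 together held 0.0939%, 0.0979% and 0.104%.

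Below the leading pair stood members whose order changed at 100 μM. miR-411-5p, from the hairpin next to Mir379, had 29087, 21422 and 6326 counts at 0, 10 and 100 μM, and its share of the locus was 9.16%, 7.26% and 1.55%. miR-541-5p had 15839, 19120 and 7059 counts, which were 11493, 14185 and 12932 normalized counts, so its normalized level was close in the 3 libraries. miR-381-3p had 9592, 4597 and 10023 counts, lowest at 10 μM on both scales. Among the arms of Mir434, miR-434-5p had 13344, 9128 and 3500 counts, and miR-434-3p had 9507, 9685 and 1412. The 10 most abundant members of each library together held 80.4%, 81.1% and 92.6% of the locus. Across the 83 members, which share libraries and depth, Spearman's rho of the levels was 0.985 between 0 and 10 μM, 0.882 between 0 and 100 μM and 0.884 between 10 and 100 μM.

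**Figure D2:**
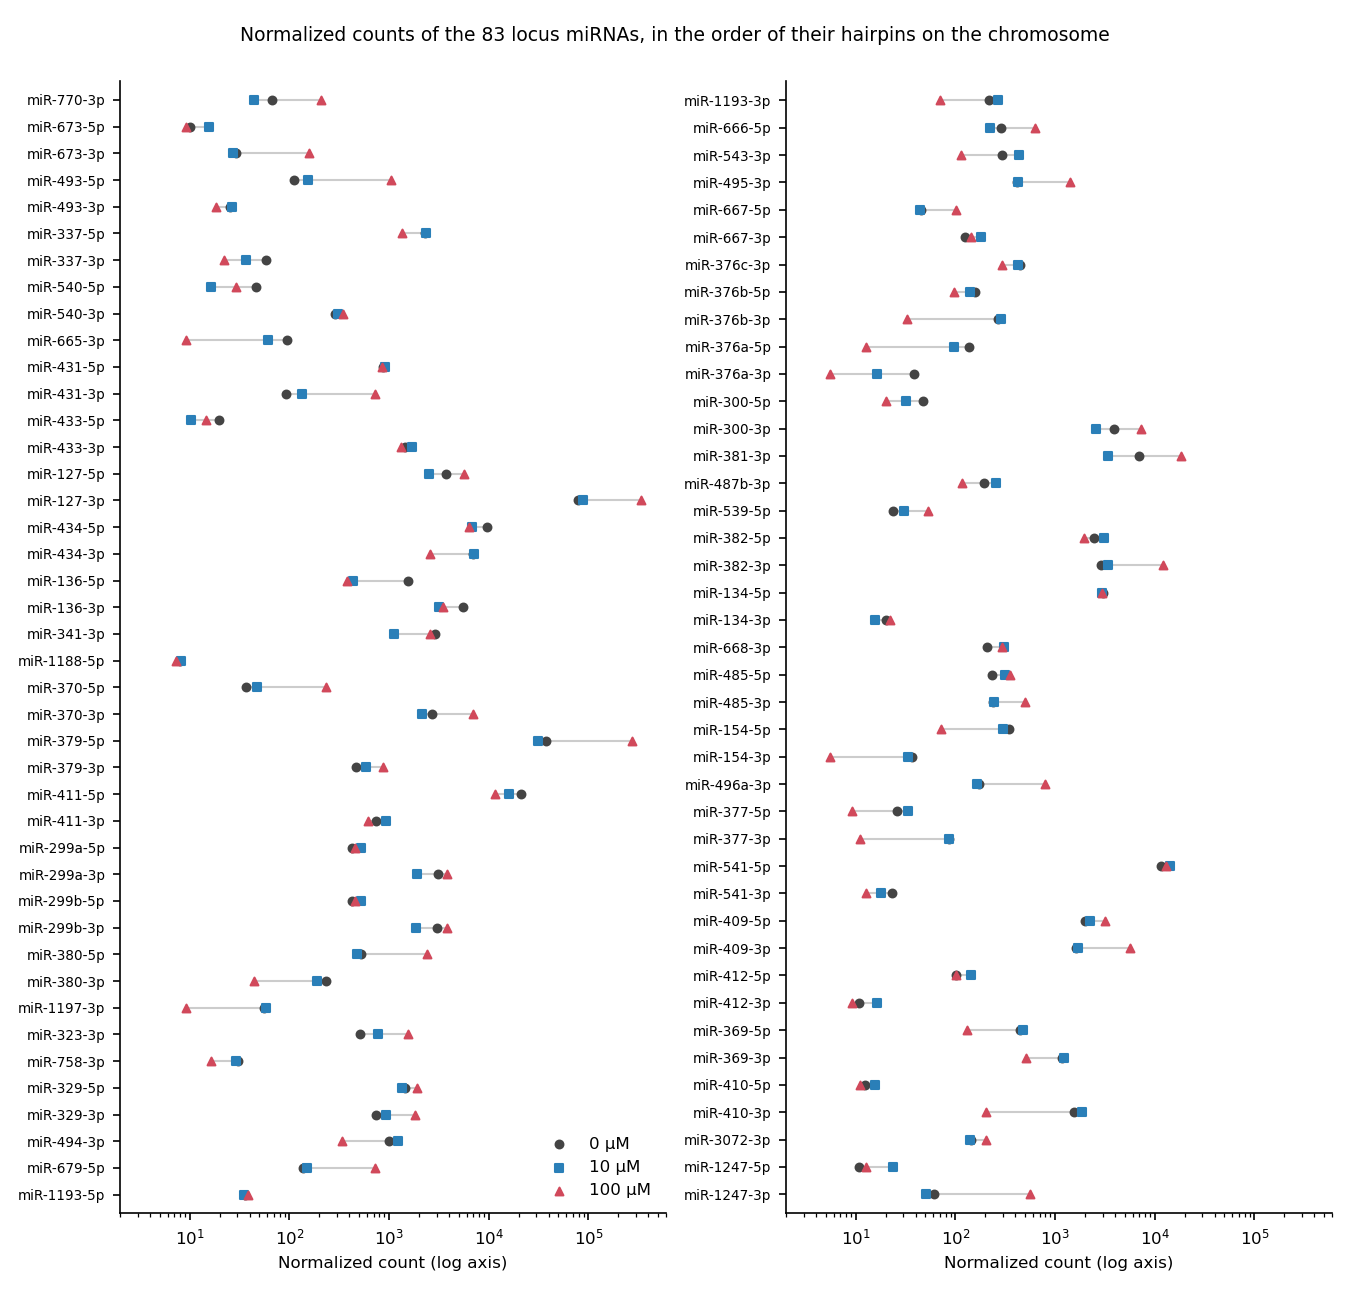
Normalized counts of the Dlk1-Dio3 miRNAs in the 3 libraries on a log axis, each miRNA with 1 point per concentration. The points at 0 and 10 μM lie near each other for most members, and those at 100 μM spread to both sides.

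Ratios were taken for members with a mean of at least 10 normalized counts, after adding 0.5 to each normalized count, and 82 of the 83 members passed. The one that did not was miR-1188-5p, with 11, 11 and 4 counts at 0, 10 and 100 μM and a mean of 7.82 normalized counts. Just inside the minimum was miR-673-5p, with 14, 21 and 5 counts and a mean of 11.6. A log2 ratio of 2 served as the threshold. The comparisons of 10 and 100 μM with 0 μM share the control library, so their ratios were not correlated with each other. A member on the same side in both is not 2 separate observations. Levels are not given per length, since mature miRNAs are of nearly one length.

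Between 10 and 0 μM the locus differed little. The log2 ratios of the 82 members had a median of 0.03 and ran from -1.84 to 1.09, beside a median of 0.02 over all 587 miRNAs. No member lay above 2 or below -2, where 0% and 0.681% of all miRNAs lay. At a log2 ratio of 1 there was 1 member above and 5 below, beside 1.53% and 5.11% of all miRNAs, so the locus stood near the background. The counting interval of the ratio lay above 0 for 25 members, below 0 for 22, and held 0 for 35, beside 165, 159 and 263 of the 587 miRNAs.

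miR-136-5p was the member with the lowest ratio at 10 μM. It comes from a hairpin antisense to Rtl1 and had 2153, 589 and 206 counts at 0, 10 and 100 μM, which were 1562, 437 and 377 normalized counts. Its log2 ratio at 10 μM was -1.84 (95% interval -1.97 to -1.71). Both DEHP libraries lay below the 1 control library, which both ratios share, and differed less from each other. The other arm, miR-136-3p, had 7604, 4289 and 1903 counts and a log2 ratio of -0.79 at 10 μM and -0.66 at 100 μM.

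The other members beyond 1 at 10 μM did not share one pattern at 100 μM. miR-341-3p, within Rian, had 2876, 1111 and 2596 normalized counts and a log2 ratio of -1.37 (-1.46 to -1.29) at 10 μM, so the 10 μM library alone was low. miR-381-3p was like it, with 6960.2, 3410.4 and 18363 normalized counts and a ratio of -1.03 at 10 μM and 1.40 at 100 μM. miR-540-5p had 64, 22 and 16 counts, with a ratio of -1.48 (-2.28 to -0.79) at 10 μM. miR-376a-3p had 53, 22 and 3 counts, with a ratio of -1.21 (-2.02 to -0.49). miR-1247-5p was the 1 member above 1, with 15, 32 and 7 counts and a ratio of 1.09 (0.20 to 2.12), and with so few counts the interval nearly reached 0.

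Between 100 and 0 μM the members spread widely in both directions about a centre that the scaling sets near 0. The median log2 ratio was 0.00, with 41 members above 0 and 41 below, and the ratios ran from -3.38 to 3.21. Over all miRNAs the median was -0.01, and the SD over miRNAs was 1.60 against 1.61 in the locus. There were 11 members above 2 and 11 below -2, each 13.4% of the 82, where 10.4% and 9.37% of all miRNAs lay. The share of members past the threshold was near the background and is not a result about the locus. At a log2 ratio of 1 there were 22 members above and 20 below, beside 26.7% and 25.7% of all miRNAs. The whole counting interval lay above 2 for 9 members and below -2 for 4, and it held 0 for 18, beside 48, 27 and 144 of the 587 miRNAs.

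Neighbouring members did not go one way. In the Mir379 to Mir410 cluster the median was 0.05, with 5 members above 2 and 9 below -2 of 56. From Meg3 up to Rtl1 the median was -0.30, with 2 above and 1 below of 10. Antisense to Rtl1 it was -0.26, again with 2 above and 1 below of 10. Of the 3 members within Rian 1 lay above 2, and of the 3 farthest along 1 lay above 2. The median was 0.01 for 35 5p members and -0.12 for 47 3p members, beside -0.17 and 0.25 for all 5p and 3p miRNAs.

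**Figure D3:**
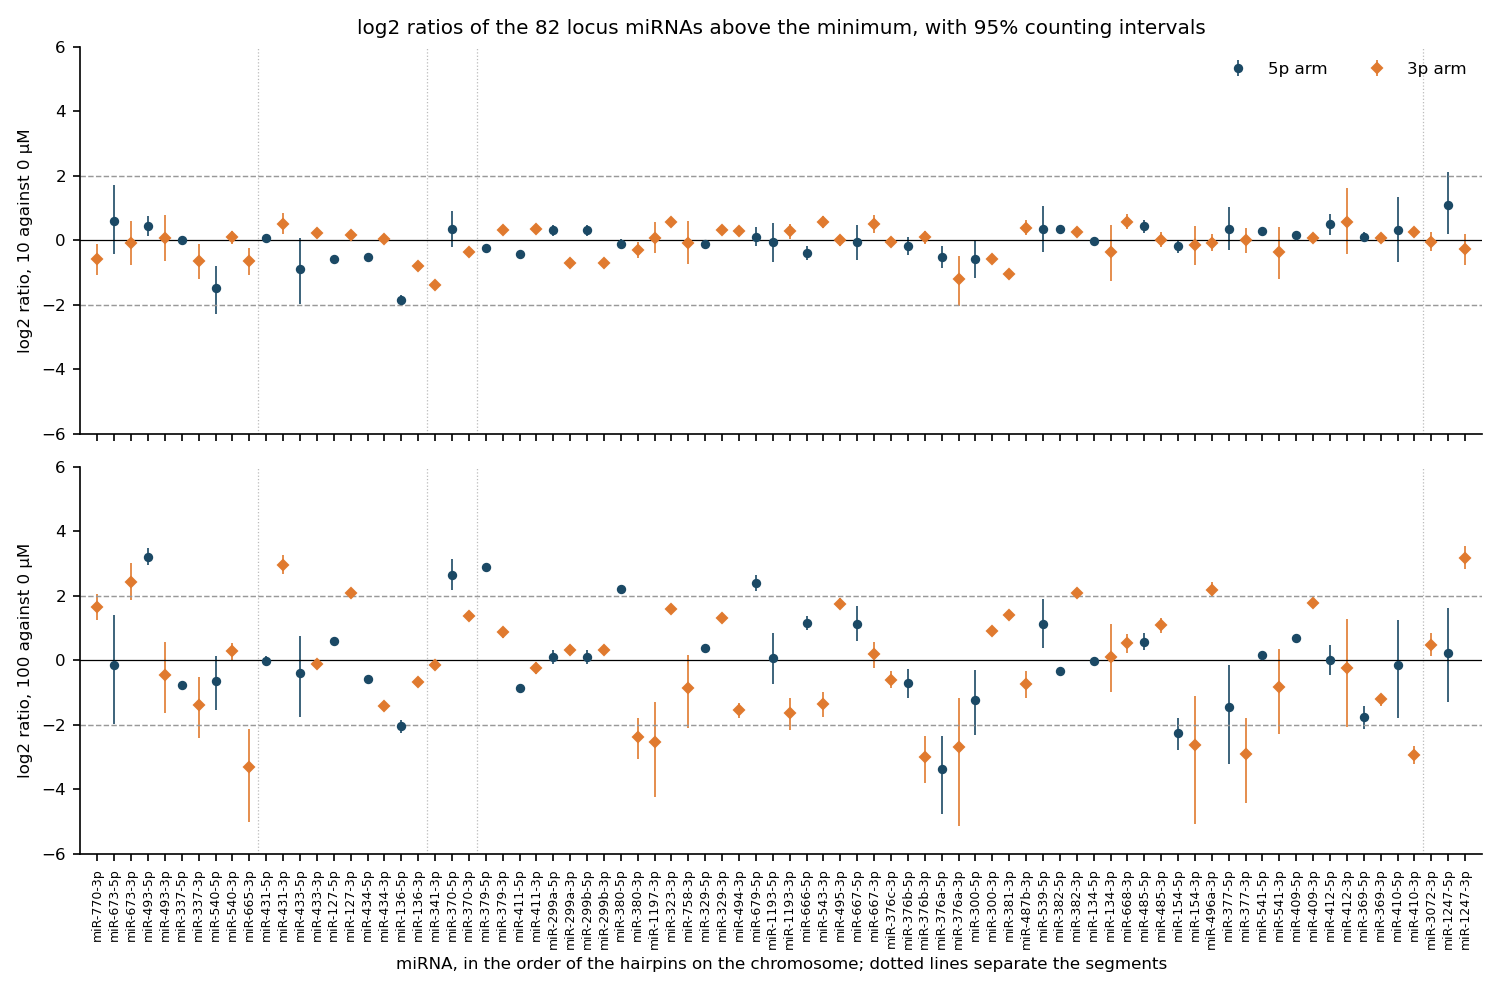
Log2 ratio of normalized counts of each Dlk1-Dio3 miRNA, 10 against 0 μM and 100 against 0 μM, in the order of the hairpins along the locus, with bars for the 95% counting interval, circles for 5p and diamonds for 3p arms, and dashed lines at the threshold of 2. Members above and below the threshold at 100 μM are interspersed within the Mir379 to Mir410 cluster, with 5 above and 9 below.

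Among the 11 members above 2 at 100 μM were the most abundant ones. miR-379-5p had 51469, 42494 and 150320 counts at 0, 10 and 100 μM, which were 37347, 31525 and 275395 normalized counts. Its log2 ratio was 2.88 (2.87 to 2.90) at 100 μM and -0.24 at 10 μM. miR-127-3p had 108309, 119823 and 182528 counts, or 78591, 88893 and 334402 normalized counts. Its log2 ratio was 2.09 (2.08 to 2.10) at 100 μM and 0.18 at 10 μM. For both, the 100 μM library was the highest also in raw counts, whereas the 0 and 10 μM libraries lay close together.

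Of the 9 less abundant members above 2, 3 had ratios above that of miR-379-5p. miR-493-5p, from the stretch between Meg3 and Rtl1, had 154, 206 and 566 counts at 0, 10 and 100 μM and a log2 ratio at 100 μM of 3.21 (2.95 to 3.48). miR-1247-3p had 85, 69 and 308 counts and a ratio of 3.18 (2.84 to 3.56). miR-431-3p, antisense to Rtl1, had 129, 181 and 399 counts and a ratio of 2.96 (2.68 to 3.26). Each of these was highest at 100 μM even before scaling. miR-370-5p, within Rian, had 37.0, 47.5 and 233 normalized counts and a ratio of 2.64 (2.17 to 3.15). miR-673-3p had 40, 37 and 86 counts and a ratio of 2.42 (1.88 to 3.02). miR-679-5p had 189, 201 and 392 counts and a ratio of 2.38 (2.13 to 2.65). The remaining 3, all in the cluster, were nearer the threshold. miR-380-5p, with 717, 646 and 1316 counts, had a ratio of 2.21 (2.08 to 2.35). miR-496a-3p, with 236, 220 and 428 counts, had a ratio of 2.19 (1.96 to 2.43). miR-382-3p, with 3996, 4634 and 6661 counts, had a ratio of 2.07 (2.02 to 2.13). When total counts set the scale in place of the size factors, every log2 ratio shifted by -1.52, so these 11 could not fall below 0. None stayed above 2, and 30 members lay below -2, including the 11 described next.

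The 11 members below -2 at 100 μM were mostly of low or middle level, and miR-410-3p and miR-136-5p were the most abundant among them. miR-410-3p, from the last hairpin of the cluster, had 2152, 2516 and 112 counts at 0, 10 and 100 μM, or 1562, 1867 and 205 normalized counts, and its log2 ratio at 100 μM was -2.92 (-3.22 to -2.65). miR-136-5p had a ratio of -2.05 (-2.26 to -1.84), and with TMM scaling it was -1.97 and no longer below -2. Of the 11, miR-136-5p had the lowest ratio at 10 μM, and miR-410-3p lay above the control there with 0.26.

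Several of the others came from neighbouring hairpins of the miR-376 group. miR-376b-3p had 372, 389 and 18 counts and a log2 ratio of -3.01 (-3.80 to -2.35) at 100 μM. miR-376a-5p had 191, 131 and 7 counts and a ratio of -3.38 (-4.77 to -2.36), and it was the lowest ratio of the locus. miR-376a-3p had 53, 22 and 3 counts and a ratio of -2.70 (-5.13 to -1.18). By contrast miR-376c-3p, of the same group, had 609, 575 and 159 counts and a ratio of -0.60. The members of this group are close copies of each other, so the way reads were divided among them is uncertain.

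The remaining members below -2 rested on few counts at 100 μM. miR-154-5p had 475, 408 and 39 counts and a log2 ratio of -2.26 (-2.78 to -1.80), and its other arm miR-154-3p had 51, 45 and 3 counts and a ratio of -2.65 (-5.08 to -1.12). miR-380-3p had 320, 253 and 24 counts and a ratio of -2.39 (-3.06 to -1.80). In each of these the 0 and 10 μM libraries were nearer to each other than to the 100 μM library. miR-377-3p had 118, 116 and 6 counts and a ratio of -2.91 (-4.44 to -1.80). miR-665-3p, from the stretch between Meg3 and Rtl1, had 132, 82 and 5 counts and a ratio of -3.32 (-5.03 to -2.13). miR-1197-3p had 76, 79 and 5 counts and a ratio of -2.53 (-4.25 to -1.30). With 3 counts at 100 μM, miR-376a-3p and miR-154-3p were at the level that a count of 0 would still allow.

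With the size factors some other members lay close to the control. miR-134-5p, the member known from dendrites, had 3018, 2991 and 2990 normalized counts at 0, 10 and 100 μM, with a log2 ratio of -0.01 (-0.10 to 0.07) at 100 μM. miR-433-3p, antisense to Rtl1, had 1971, 2272 and 718 counts and a ratio of -0.12 (-0.25 to 0.00). miR-431-5p had 1193, 1219 and 464 counts and a ratio of -0.03 (-0.18 to 0.13). With total counts these became -1.53, -1.64 and -1.54 in the same order, so their closeness depended on the scaling. Away from the control, miR-494-3p and miR-495-3p, both in the cluster, lay on opposite sides with ratios of -1.55 (-1.78 to -1.33) and 1.76 (1.60 to 1.92).

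Between 100 and 10 μM the values of the members were spread much as against the control. The median log2 ratio was -0.08, beside -0.03 over all miRNAs, with 11 members above 2 and 9 below -2, where 12.3% and 8.69% of all miRNAs lay. At a log2 ratio of 1 the counts were 25 above and 18 below, beside 29.5% and 24.7% of all miRNAs. miR-770-3p, from the hairpin in Meg3, and miR-381-3p lay above 2 in this comparison with ratios of 2.22 and 2.43. miR-127-3p and miR-382-3p lay just under the threshold, with 1.91 and 1.83. miR-136-5p, low in both DEHP libraries, had a ratio of -0.21 between them.

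Another imprinted group of miRNAs, encoded in an intron of Sfmbt2 on another chromosome, served as a comparison. Of its 37 members above the minimum, 0 lay above 2 and 1 below -2 at 100 μM, with a median log2 ratio of 0.24, against 11 and 11 of 82 in the Dlk1-Dio3 locus and 10.4% and 9.37% of all miRNAs. These libraries give no test of that difference.

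The arms of single hairpins were compared within each library as the share of 5p counts among the 5p and 3p counts. This share does not depend on how libraries are scaled. Of 32 hairpins with both arms above the minimum, the 5p arm was dominant in 14 and the 3p arm in 18 at 0 μM. The Wilson intervals at 10 and 0 μM did not meet for 10 hairpins. Mir299a and Mir299b, whose reads cannot be told apart, are both among these 10 and among the 32. At 100 and 0 μM they did not meet for 21 hairpins, with the 5p share higher in 9 and lower in 12. The arms' log2 ratios at 100 μM differed by more than 1 in 17 hairpins and by more than 2 in 10. The same counts were not taken for hairpins outside the locus, so they are not a result about the locus.

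The plainest difference was in Mir380, the only hairpin of the 32 whose arms, with the size factors, both lay beyond 1 in opposite directions. Its 5p arm made up 69.1% (66.3% to 71.9%) of its counts at 0 μM, 71.9% (68.8% to 74.7%) at 10 μM and 98.2% (97.3% to 98.8%) at 100 μM. Among other miRNAs 16.9% of hairpins had such arms, against 3.13% in the locus. With the size factors Mir382 and Mir300 also had arms whose intervals lay on opposite sides of 0, but with total counts miR-300-3p had a ratio of -0.61, the same sign as its other arm. In Mir382 the arms were balanced in the first libraries, with a 5p share of 46.0% and 47.6%, and at 100 μM the 5p share was 13.9% (13.1% to 14.7%). In Mir300 it went from 1.22% to 1.21% and 0.278%, with 66, 43 and 11 counts of the 5p arm.

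In other hairpins, with the size factors, the difference lay in 1 arm, while the counting interval of the other arm's ratio held 0. Which arm differed depended on the scaling, since miR-431-5p had a ratio of -1.54 with total counts. The 5p share of Mir431 was 90.2% at 0 μM, 87.1% at 10 μM and 53.8% (50.4% to 57.1%) at 100 μM, where the arms were nearly equal. In Mir493 it was 81.5%, 85.1% and 98.3% (96.8% to 99.1%), the opposite direction. In Mir1247 it was 15%, 31.7% and 2.22%, so that the 10 and 100 μM libraries lay on opposite sides of the control. The 5p share of Mir673 was 25.9%, 36.2% and 5.49% on 54, 58 and 91 counts. Mir410 went from 0.784% and 0.828% to 5.08% (2.35% to 10.7%), with 17, 21 and 6 counts of the 5p arm and far fewer of the 3p arm at 100 μM.

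The dominant arm itself was another in Mir376b and Mir409 at 100 μM. In Mir376b the 5p share was 36.8% (33.0% to 40.8%) at 0 μM, 32.6% at 10 μM and 74.6% (63.4% to 83.3%) at 100 μM. In Mir409 it was 54.9%, 57.0% and 36.3%. At 10 μM the dominant arm changed in Mir434, whose 5p share was 58.4%, 48.5% and 71.3%, and in Mir485, whose share of 49.8% at 0 μM could not be told from equal arms. A change of the dominant arm at 100 μM was found in 6.25% of locus hairpins and in 15.5% of 142 other hairpins.

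Some abundant hairpins differed in small steps beyond their counting error. The 5p share of Mir127 was 4.51% (4.39% to 4.63%), 2.73% (2.64% to 2.83%) and 1.65% (1.60% to 1.71%), lower in each DEHP library. In Mir136 it was 22.1%, 12.1% and 9.77%, in the same order. In Mir379 it was 98.8%, 98.2% and 99.7%, and in Mir370 1.35%, 2.19% and 3.22%. Among hairpins with few counts, Mir1193 had 14.2%, 11.6% and 35.6%, the last on 59 counts. Mir377 had 23.4%, 28.0% and 45.5%, the last on 11 counts, and its intervals at 0 and 100 μM overlapped. Mir541 stayed at 99.8%, 99.9% and 99.9%, though the log2 ratios of its arms differed by just over 1.

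**Figure D4:**
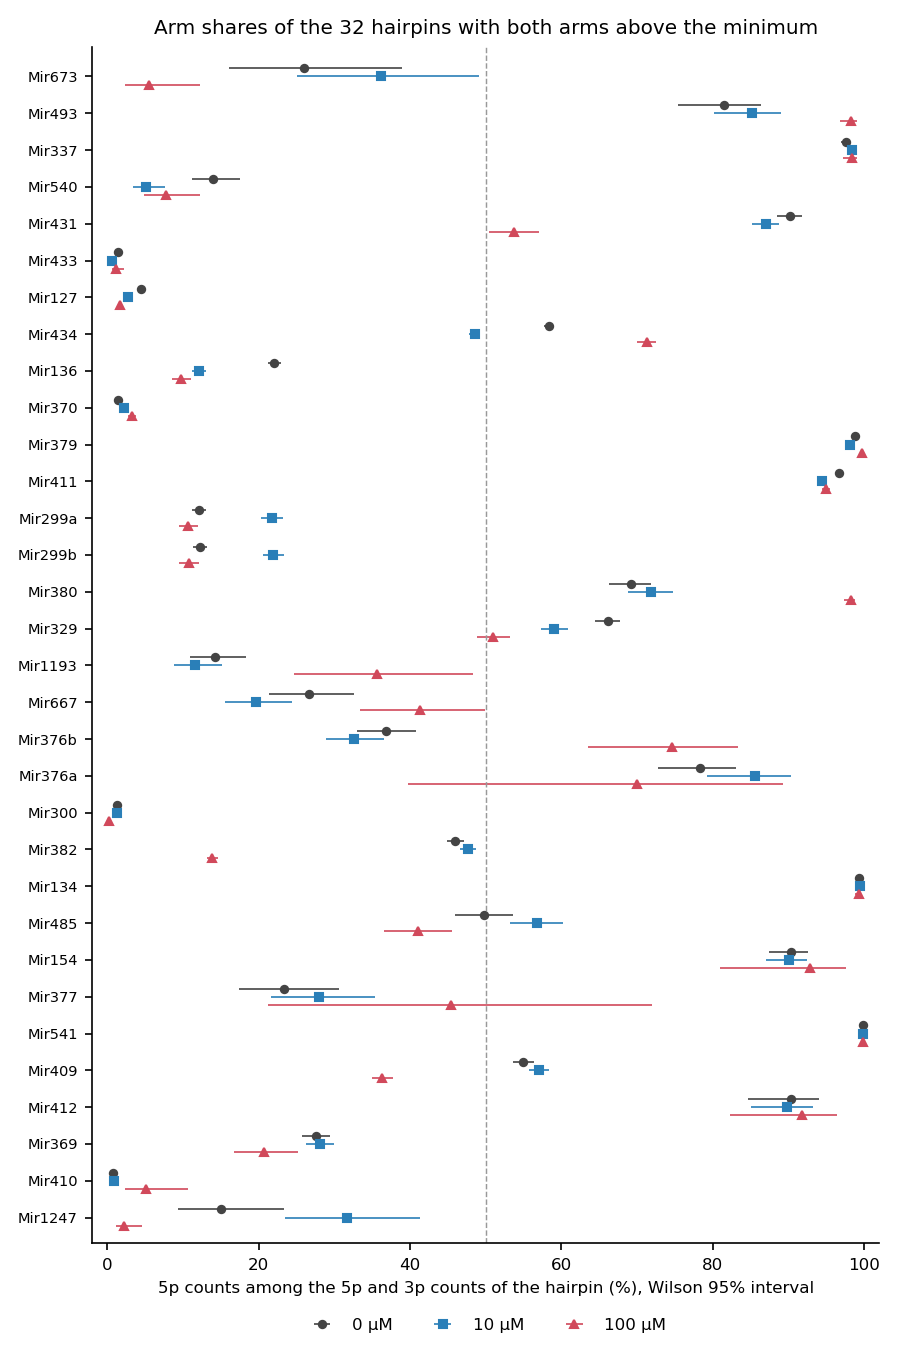
Share of 5p counts among both arms (%) for the 32 hairpins with both arms above the minimum, in order along the locus, with Wilson 95% intervals at 0, 10 and 100 μM. The intervals at 100 and 0 μM do not meet for 21 hairpins, a count not taken outside the locus. Mir376b and Mir409 cross the line of equal arms at 100 μM.

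At 100 μM the arms of 1 hairpin were nearer to each other than members in general, and at 10 μM they were not. At 100 μM the median absolute difference between arms was 1.05 on the log2 scale, against 1.58 over all 3321 pairs of members and 1.51 between arms of other hairpins. At 10 μM it was 0.51, against 0.44 over all pairs and 0.39 in other hairpins. With the size factors the arms had ratios of opposite sign at 100 μM in 11 of the 32 hairpins, or 34.4%, against 58.5% elsewhere. These are descriptions of the same libraries and were not tested.

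Of 4 pairs of members with the same seed, some had ratios well apart at 100 μM. miR-379-5p and miR-1193-5p share the seed shown above, with log2 ratios of 2.88 and 0.08, and miR-1193-5p had only 50, 47 and 21 counts. miR-370-5p and miR-1193-3p, also shown above with 1 seed, had ratios of 2.64 and -1.64. The 3p arms of Mir379 and Mir411 share a seed as well, with ratios of 0.87 and -0.24. These lay closer together than the median absolute difference of 1.58 over all pairs of members. miR-299a-3p and miR-299b-3p share theirs because their hairpins lie on opposite strands of the same bases. Their counts, 4254, 2545 and 2098 against 4196, 2516 and 2073, were nearly equal, and reads of one cannot be told from reads of the other.

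Base composition went with the ratios at 100 μM. Mature sequences were found for 79 of the 82 members. Across these 79, which share libraries and in part hairpins, Pearson's r between GC content and the log2 ratio was 0.37 and Spearman's rho 0.39 at 100 μM, and r was 0.07 at 10 μM. Over the 418 other miRNAs with a sequence r was 0.11 at 100 μM. Median GC content was 54.5% for the members above 2 and 38.1% for those below -2. Other miRNAs gave 49.0% and 45.5% for the same classes. The third of the members with the lowest GC content had a median ratio of -1.22, with 4 above 2 and 9 below -2 of 27, and the third with the highest had 0.38, with 6 above and 1 below of 26. The member furthest from this pattern was miR-665-3p, which has a GC content of 65.0% and was among the lowest.

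**Figure D5:**
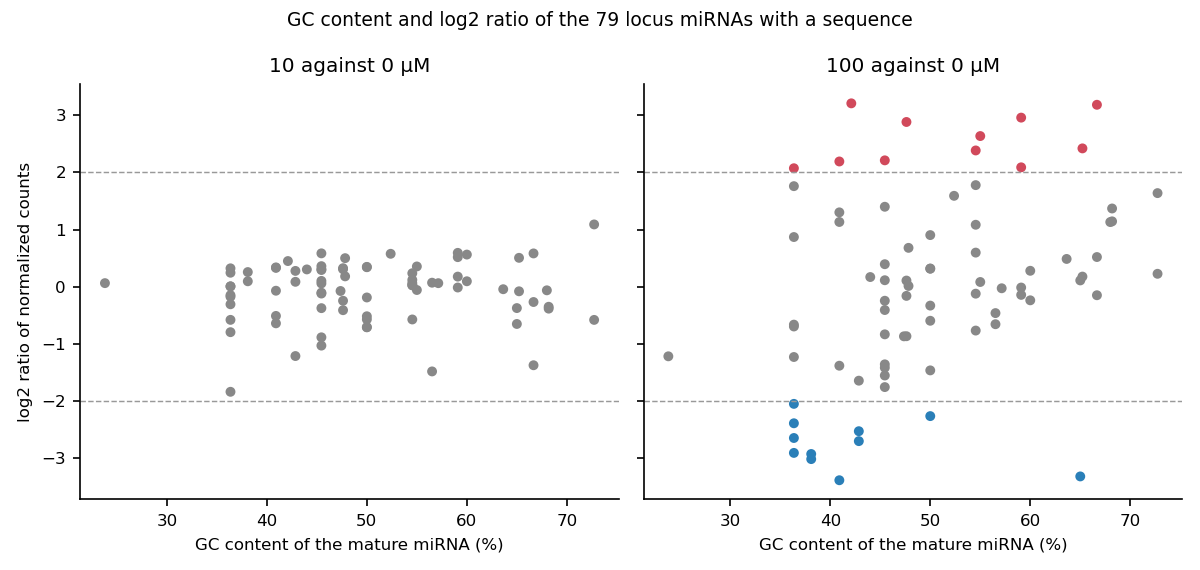
GC content (%) of each mature Dlk1-Dio3 miRNA against its log2 ratio of normalized counts, 10 against 0 μM and 100 against 0 μM, for 79 members with a sequence, with members beyond 2 coloured. At 100 μM 9 of the 11 members below -2 are in the third with the lowest GC content, and at 10 μM the points lie flat.

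The last base and the level differed between the same groups. Of the members below -2 at 100 μM, 9 of 11 ended in U, against 5 of 11 above 2 and 42 of all 79, or 53.2%. Among other miRNAs 32.8% ended in U, and 28.2% of those below -2 did. The mean level of a member, on the log2 scale, had a Pearson's r of 0.32 with its ratio at 100 μM, against 0.23 in the other miRNAs, and its length had 0.05. The mean level includes the 100 μM count, which is also in the ratio, so level and ratio are not independent. The part of base composition, end base and level in the ratios was not tested.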

How the data were processed

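Ovaries of newborn CD1 mice were cultured with 0, 10 or 100 μM DEHP, pooled, and sequenced as 1 small RNA library per concentration on an Illumina instrument. The authors removed linkers and low-quality reads, aligned with bowtie2 and counted miRNAs with miRDeep2 (versions not given in the sources used here). The submitters' processing notes name mm10 and DESeq2. The deposited values are raw counts per miRNA, with 961 rows for 627 mature IDs, and 79 IDs on several rows. The row with the highest total was kept for each ID, and 0 columns of samples were left unused.

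From these counts, DESeq2 1.42.0 (R 4.3.3) gave median-of-ratios size factors. Ratios of normalized counts plus 0.5 were taken on the log2 scale for miRNAs with a mean of at least 10 normalized counts, with a threshold of 2. Intervals of ratios were exact Clopper-Pearson 95% intervals for the split of both counts, and those of shares were Wilson intervals (Python 3.11.15). The floor for a count of 0 was 3 counts. Neither DESeq2 nor edgeR could test with 1 library per concentration. The ratio script was checked on simulated counts.

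The locus members were set by family number, with no use of measured values. Which of them to name, and the other lists, were chosen with earlier results of these data known. Named were the 10 most abundant members, every member beyond 2 in any comparison or with 3 counts or fewer, the arms of hairpins whose log2 ratios differed by more than 1, the miRNAs antisense to Rtl1, and the members beside the minimum. Others named, such as miR-134-5p, miR-341-3p, miR-376c-3p, miR-494-3p and miR-495-3p, were chosen after their values were seen. Alternatives changed the scaling (total counts, edgeR 4.0.16 TMM and upper quartile, without the most abundant miRNAs, without the locus), the added count, the minimum, the threshold and the treatment of IDs on several rows. Coordinates are GRCm38, from RefSeq and GENCODE.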

Additional observations from a re-analysis of the deposited data

Results flagged for a closer look

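The counts hold a further value for miR-299b-3p, on a row that the values above do not use, with 16, 16 and 27 counts at 0, 10 and 100 μM. It is listed because it was left out when 1 row was kept for each ID. It was higher at 100 μM than in the control. With 1 library per concentration the difference has no replicate check.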

How the results depend on the processing

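No paired analysis was possible because each concentration had 1 library, and for the same reason none could be left out. Scaling mattered most. Against the size factors, total counts shifted every log2 ratio at 100 against 0 μM by -1.52, scaling without the 10 most abundant miRNAs by -0.76, TMM by 0.08 and upper quartile by 0.01. With total counts the median of the locus became -1.51 at 100 against 0 μM and -1.62 at 100 against 10 μM, with 0 members above 2 and 30 and 31 below -2. Without the 10 most abundant miRNAs the medians were -0.76 and -0.89, with 4 above and 18 below at 100 against 0 μM, and 2 and 17 at 100 against 10 μM. All 11 members above 2 and all 11 below -2 at 100 against 0 μM kept their sign in every setting. The scaling shifts were too small to change the sign of a ratio beyond 2. With TMM 10 stayed below -2, without miR-136-5p at -1.97. A threshold of 1 gave 1 above and 5 below at 10 μM, 22 and 20 at 100 against 0 μM, and 25 and 18 at 100 against 10 μM. A minimum mean of 100 normalized counts left 5 below -2 at 100 against 0 μM and 4 at 100 against 10 μM.

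The share of the locus at 0, 10 and 100 μM was 4.59%, 4.25% and 5.94% with all rows of an ID summed. It was 7.14%, 6.30% and 11.4% of a total without the 10 most abundant miRNAs, which leaves out miR-127-3p too. It was 5.96%, 5.78% and 6.81% without members on several rows, and 5.95%, 5.77% and 6.80% without the arms of miR-299b, a setting chosen after seeing the data. Of 1029 values of the 49 named members under the alternatives, 839 stayed within the counting interval and 190 moved beyond it. The sign changed in 28, and 26 of these were under total counts with or without the 10 most abundant miRNAs. miR-127-5p at 100 against 0 μM, for example, went from 0.60 to -0.92 with total counts. None of the 28 was a value beyond 2, whose sign the scaling shifts were too small to change. Depth limits members with few counts at 100 μM, such as miR-376a-3p, whose interval ran from -5.13 to -1.18.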

Other observations

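Some members share a seed with miRNAs from outside the locus, and the levels of the partners differed at 100 μM. miR-329-3p had 1025, 1261 and 1001 counts at 0, 10 and 100 μM and a log2 ratio at 100 μM of 1.30. miR-362-3p, which is not in the locus and has the same seed, had 323, 199 and 22 counts and a ratio of -2.53. miR-410-3p, with a ratio of -2.92, shares its seed with miR-344d-3p, which had 26, 44 and 14 counts and a ratio of 0.43. miR-377-5p, with 36, 45 and 5 counts and a ratio of -1.46, shares its seed with the more abundant miR-672-5p, which had 6950, 7240 and 3255 counts and a ratio of 0.24. These pairs were not tested.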
